A study of Mus musculus with 12 samples.

Results

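The 10 imprinted genes H19, Igf2, Dlk1, Meg3, Peg3, Plagl1, Mest, Ndn, Cdkn1c and Grb10 were followed across cultured mouse astrocytes. They were taken by gene symbol from a table of 32742 genes, each symbol matched 1 row, and all 10 passed the filter on low counts that left 21129 genes to test. The cells were primary astrocytes from the midbrain of mouse pups aged P0 to P3, grown as mixed glia and shaken to detach other cells. They were wild type (WT) or knockout (KO) for Arrb2, the gene of beta-arrestin 2, a protein that turns off and reroutes signals of G protein-coupled receptors. Cells of either genotype were given 500 µM MPP+ for 24 h or phosphate-buffered saline (PBS) alone, with Day 14 as the labelled time, which gave 4 groups of 3 samples: WT in PBS, WT in MPP+, KO in PBS and KO in MPP+. MPP+, the compound into which the neurotoxin MPTP is converted in the brain, blocks complex I of the respiratory chain. The labels do not say that replicates came from separate litters or cultures, so p-values measure the spread between these samples, which may be technical. How the knockout allele was made, and whether it was constitutive, is not given in the sources used here.

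Imprinted genes are expressed mainly from 1 parental allele, which is set by DNA methylation laid down in the germ line at imprinting control regions. Many of them act on growth of the embryo and placenta, and as a rule in mammals the paternally expressed members promote growth while the maternally expressed ones restrain it. In most mouse tissues, though not in every one, Igf2, Dlk1, Peg3, Plagl1, Mest and Ndn are expressed from the paternal allele and H19, Meg3 and Cdkn1c from the maternal allele. Grb10 is maternal in most mouse tissues and paternal in neurons. Reads were summed per gene in these data, so the allele of origin was not measured. In RNA from a whole culture, fewer cells of a type and less RNA per cell cannot be told apart.

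The members H19 and Igf2, and Dlk1 and Meg3, sit in pairs. On GRCm38, H19 (ENSMUSG00000000031, chr7:142575529-142578143, minus strand) lies 72.6 kb from Igf2 (ENSMUSG00000048583, chr7:142650766-142666816, minus strand), and Cdkn1c (ENSMUSG00000037664, chr7:143458339-143461050, minus strand) lies 880 kb from H19 in the same distal domain. Dlk1 (ENSMUSG00000040856, chr12:109452823-109463336, plus strand) lies 77.7 kb from Meg3 (ENSMUSG00000021268, chr12:109541001-109571721, plus strand). The other members stand in domains of their own, namely Peg3 (ENSMUSG00000002265, chr7:6703892-6730431, minus strand), Plagl1 (ENSMUSG00000019817, chr10:13060504-13130982, plus strand), Mest (ENSMUSG00000051855, chr6:30723547-30748462, plus strand), Ndn (ENSMUSG00000033585, chr7:62346569-62350262, plus strand) and Grb10 (ENSMUSG00000020176, chr11:11930508-12037401, minus strand). H19 and Meg3 are annotated as long intergenic noncoding RNAs and the other 8 members as protein-coding.

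H19, Mest, Igf2 and Meg3 also carry microRNA hairpins. Their mature forms are shown because these 4 host genes fell in WT in MPP+, as described below. The sequences are those of RefSeq for GRCm38.p6, 5′ to 3′, and the capitals mark the seed, bases 2 to 8.
miR-675-5p: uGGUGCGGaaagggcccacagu
miR-675-3p: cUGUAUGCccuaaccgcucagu
miR-335-5p: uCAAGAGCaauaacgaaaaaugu
miR-335-3p: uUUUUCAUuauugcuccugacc
miR-483-5p: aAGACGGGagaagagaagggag
miR-483-3p: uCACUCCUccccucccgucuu
miR-770-5p: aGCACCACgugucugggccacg
miR-770-3p: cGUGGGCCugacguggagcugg
miR-1906: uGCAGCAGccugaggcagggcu
The miR-675 hairpin lies in an exon of H19 (miR-675-5p at chr7:142577112-142577133), miR-335 in an intron of Mest (miR-335-5p at chr6:30741314-30741336) and miR-483 in an intron of Igf2 (miR-483-5p at chr7:142654968-142654989). Within Meg3, miR-770 lies in an exon of 1 of 4 spanning transcripts (miR-770-5p at chr12:109563710-109563731) and miR-1906 in an exon of all 5 (chr12:109544588-109544609). The 9 mature sequences have 9 distinct seeds. These libraries were made for messenger RNA and do not measure mature microRNAs, and the rows of the Mir675, Mir335, Mir770 and Mir1906-1 hairpins held 0 to 2 counts in every sample.

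Library totals ran from 64249029 to 69865569 counts, with 23172 to 24706 genes detected. Arrb2 was at 21.7 to 31.0 CPM (counts per 1 M, with library sizes scaled by the trimmed mean of M values) in WT in PBS and at 13.8 to 16.1 CPM in KO in PBS. In MPP+ it was at 17.2 to 24.2 CPM in WT and 12.1 to 15.1 CPM in KO, so Arrb2 RNA was lower in every knockout sample but present. All 10 astrocyte markers were detected in every library. Their summed level was 4944 to 5817 CPM in WT in PBS, 1725 to 2335 CPM in WT in MPP+, 3362 to 4322 CPM in KO in PBS and 1505 to 1789.7 CPM in KO in MPP+. The summed level of 4 Y-linked genes was at most 0.23 CPM in the WT libraries and 39.4 to 131 CPM in the KO libraries, so sex and genotype cannot be told apart.

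Per length of gene model, Mest was the most abundant member in WT in PBS, at 68.0 ± 4.53 FPKM (fragments per kilobase per 1 M, mean ± SD, n = 3). Igf2 (24.2 ± 16.7 FPKM), Plagl1 (24.1 ± 2.89) and Ndn (23.0 ± 2.04) followed and did not differ from each other beyond their spread. H19 stood at 12 ± 7.81 FPKM, Meg3 at 9.51 ± 0.82, Peg3 at 6.3 ± 1.71, Cdkn1c at 4.58 ± 0.257, Grb10 at 4.14 ± 1.44 and Dlk1 at 2.95 ± 0.642. H19 and Meg3 overlapped within their spread, as did Cdkn1c and Grb10. The order was different in KO in MPP+, where Plagl1 was first at 23.4 ± 5.13 FPKM, followed by Grb10 at 15.5 ± 1.67 and Ndn at 12.5 ± 0.343. Mest was then at 6.73 ± 0.453 FPKM and Dlk1 last at 0.445 ± 0.167. The summed level of the 10 members ran from 954 to 1241 CPM in WT in PBS and from 796 to 811 CPM in WT in MPP+. In KO it ran from 901 to 1091 CPM in PBS and from 592 to 669 CPM in MPP+, so treated and untreated samples did not overlap in either genotype. Mest had the largest fall within these sums, from a mean of 298 to 26.8 CPM in WT and from 311 to 29.0 CPM in KO. Plagl1 and Grb10 had higher means in MPP+.

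**Figure D1:**
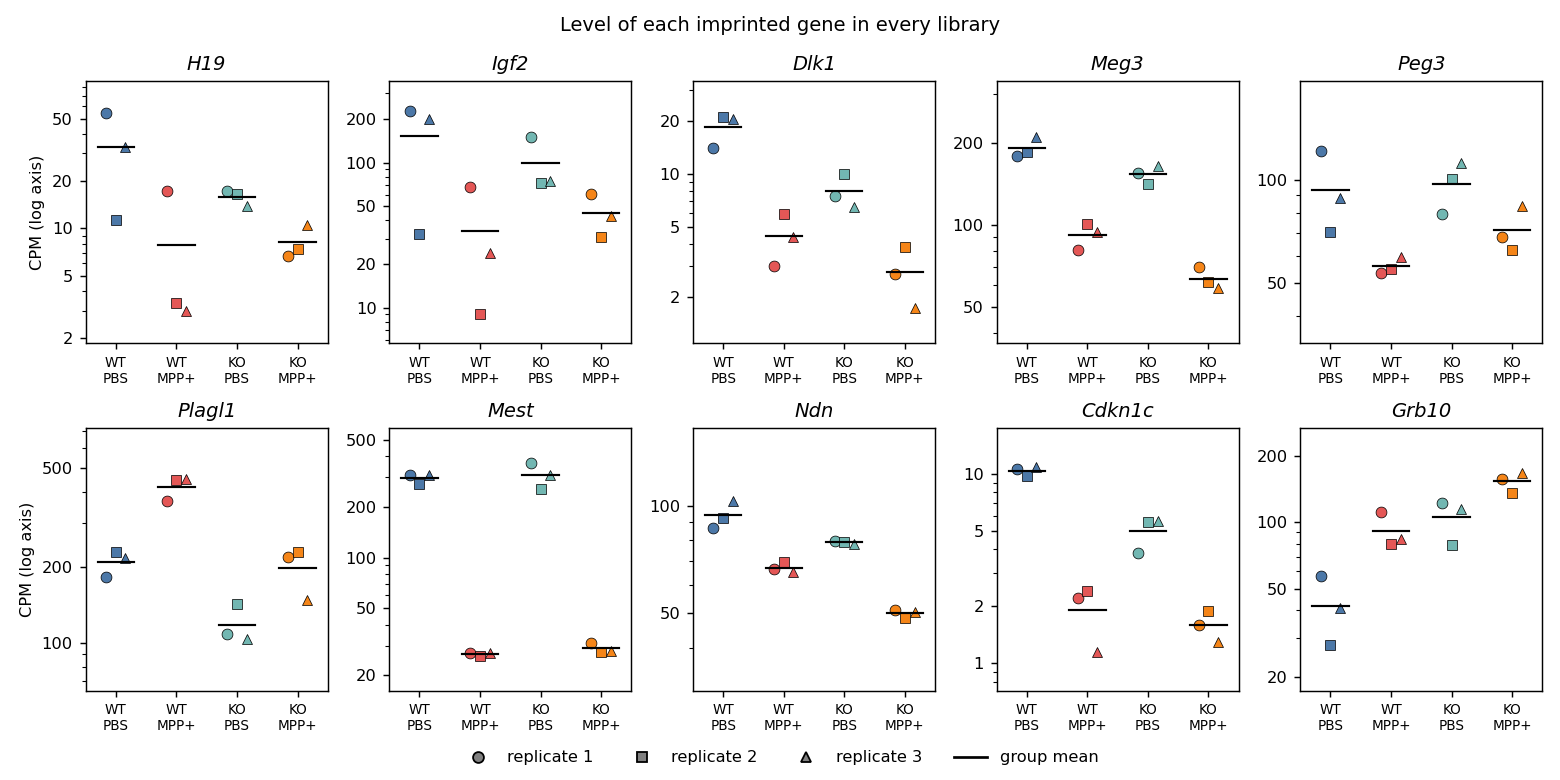
Level of each of the 10 members in every library, in CPM on a log axis, by group (WT or KO, PBS or MPP+). Symbols mark the replicate number and the line is the group mean. Mest falls to near 30 CPM in all MPP+ libraries, Plagl1 and Grb10 lie higher in MPP+ than in PBS of the same genotype, and Igf2 and H19 scatter widely within WT groups.

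The first comparison asked what MPP+ did to these genes in WT astrocytes. All 10 members were called, meaning an adjusted p under 0.05 by edgeR's quasi-likelihood test with Benjamini-Hochberg adjustment over all 21129 genes. Of them, 8 fell and 2, Plagl1 and Grb10, rose. MPP+ moved much of the transcriptome: 55.2% of all tested genes were called, 28.4% lower and 26.8% higher. A change of at least 2-fold was called for 8 members and for 25.4% of all genes. Treated and untreated libraries did not overlap for 8 members and for 62.9% of all genes. The median log2 fold change of the members was -1.56, against -0.04 over all genes. In KO, 6 of 10 members were called, 5 lower and 1 higher, where 47.7% of all genes were called, 24.7% lower and 23.1% higher. These shares include genes of few counts. With a stricter filter, at least 1 CPM in 3 libraries, MPP+ called 10683 of 15914 genes in WT and 9624 in KO. The 6 of 10 members in KO lie near that share. Groups did not overlap for 9 members and for 59% of all genes, and the members' median was -1.05 against -0.04. Values after ± below are standard errors of log2 fold changes from the same fit unless SD is named.

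Mest, which encodes an alpha/beta hydrolase-fold protein of the endoplasmic reticulum, fell the most in the knockout and in wild type. In PBS it stood at 309, 274 and 311 CPM in WT and 367, 255 and 311 CPM in KO. In MPP+ it stood at 27.2, 26.0 and 27.2 CPM in WT and 31.3, 27.7 and 27.9 CPM in KO. Every treated library lay below every untreated one, and the treated libraries spanned 1.05-fold in WT. The fall was 11.1-fold in WT (log2 fold change -3.47 ± 0.12, adjusted p = 2.76e-09) and 10.7-fold in KO (-3.42 ± 0.12, adjusted p = 3.76e-09). Copg2, which overlaps the end of Mest by 909 bp on the opposite strand, was not called in WT (0.01 ± 0.053, adjusted p = 0.908) or in KO (0.14 ± 0.053, adjusted p = 0.0514). Whether counting used strand is not given in the sources used here, so reads in that overlap may be shared.

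Meg3, the noncoding RNA of the chromosome 12 pair, was even between replicates. It was at 179, 185 and 210.0 CPM in WT in PBS and 81.0, 101 and 93.9 CPM in WT in MPP+. In KO it went from 155, 141 and 164 CPM to 70.0, 61.6 and 58.8 CPM. No treated library reached an untreated one, and the log2 fold change was -1.05 ± 0.1 (adjusted p = 4e-06) in WT and -1.27 ± 0.1 (adjusted p = 1.35e-06) in KO. Dlk1, a transmembrane protein with Delta-like EGF repeats that is cleaved to a soluble form and inhibits adipocyte differentiation, was at 14.0, 21.1 and 20.6 CPM in WT in PBS and 3.0, 5.92 and 4.38 CPM in WT in MPP+. The KO libraries had 7.45, 9.96 and 6.5 CPM without the toxin and 2.71, 3.83 and 1.74 CPM with it. These groups did not overlap either, and Dlk1 fell by 2.07 ± 0.32 on the log2 scale in WT (adjusted p = 0.00019) and by 1.53 ± 0.32 in KO (adjusted p = 0.00198).

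H19 and Igf2, the second pair, were the least even of the members. H19 was at 54.2, 11.3 and 33.0 CPM in WT in PBS and 17.3, 3.37 and 2.97 CPM in WT in MPP+. Igf2, the fetal insulin-like growth factor, was at 228, 32.0 and 201 CPM in WT in PBS and 68.3, 9.1 and 23.8 CPM in WT in MPP+. For both genes WT PBS replicate 2 lay below WT MPP+ replicate 1, so the groups overlapped. The calls were H19 -2.06 ± 0.67 (adjusted p = 0.021) and Igf2 -2.19 ± 0.76 (adjusted p = 0.0296). The H19 call was lost without WT PBS replicate 1 (-1.5, adjusted p = 0.0915), WT MPP+ replicate 2 (-1.69, 0.0706) or WT MPP+ replicate 3 (-1.67, 0.0682), and when only the 2 WT groups were fitted (-2.04, 0.075). Without WT MPP+ replicate 1 the H19 value was -3.37 (adjusted p = 0.000446). The Igf2 call was lost without WT PBS replicate 1 (-1.8, 0.0922) or 3 (-1.96, 0.0758), WT MPP+ replicate 2 (-1.74, 0.079) or 3 (-1.99, 0.0942), and with the WT groups alone (-2.17, 0.0796). Without WT MPP+ replicate 1 the Igf2 value was -3.23 (adjusted p = 0.00624).

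In KO the same pair was more even and its groups did not overlap. H19 went from 17.2, 16.5 and 14.0 CPM in PBS to 6.69, 7.41 and 10.5 CPM in MPP+. Igf2 went from 151, 72.5 and 74.2 CPM to 61.0, 30.9 and 42.8 CPM. Neither passed the test over all 4 groups, which shares 1 estimate of the spread (H19 -0.96 ± 0.65, adjusted p = 0.256, 95% interval -2.38 to 0.47; Igf2 -1.14 ± 0.74, adjusted p = 0.233, 95% interval -2.77 to 0.48). With the KO groups alone, H19 had a log2 fold change of -0.93 (adjusted p = 0.00492) and Igf2 of -1.12 (adjusted p = 0.0324). With replicate number within genotype as a block, edgeR called Igf2 (-1.11, adjusted p = 0.00921) but not H19.

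Cdkn1c, a cyclin-dependent kinase inhibitor of the Cip/Kip family that restrains the cell cycle, was at 10.6, 9.74 and 10.9 CPM in WT in PBS and 2.22, 2.4 and 1.15 CPM in WT in MPP+. Its KO values were 3.82, 5.57 and 5.61 CPM in PBS against 1.59, 1.9 and 1.3 CPM in MPP+. It fell 5.41-fold in WT (-2.44 ± 0.27, adjusted p = 1.38e-05) and 3.13-fold in KO (-1.65 ± 0.27, adjusted p = 0.000344), with no overlap of groups. Ndn, a growth suppressor of the MAGE family, fell less, and its SD pooled over the 4 groups was the smallest of the members. It went from 86.9, 92.7 and 103 CPM to 66.5, 69.4 and 65.4 CPM in WT, and from 79.8, 79.4 and 78 CPM to 51.1, 48.7 and 50.4 CPM in KO. The log2 fold changes were -0.49 ± 0.064 (adjusted p = 4.68e-05) and -0.66 ± 0.064 (adjusted p = 6.32e-06).

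Peg3, a zinc-finger protein, was at 121, 70.4 and 88.6 CPM in WT in PBS and 53.4, 54.9 and 59.4 CPM in WT in MPP+, a called fall (-0.74 ± 0.19, adjusted p = 0.00538). In KO its groups overlapped, with 79.3, 100.2 and 112 CPM in PBS against 68.1, 62.3 and 83.7 CPM in MPP+, and the difference missed the threshold (-0.45 ± 0.19, adjusted p = 0.0683). DESeq2 called it in KO (adjusted p = 0.0337).

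The 2 members that rose encode a transcription factor and a receptor adaptor. Plagl1, a zinc-finger factor known in mice to act on a set of imprinted genes that includes Igf2, H19 and Cdkn1c, went from 182, 229.9 and 217 CPM to 367, 444 and 449 CPM in WT. In KO it went from 108, 142 and 103 CPM to 219, 231 and 148 CPM. It rose 2.0-fold in WT (1.0 ± 0.17, adjusted p = 0.000442) and 1.7-fold in KO (0.76 ± 0.17, adjusted p = 0.0034), and all treated libraries lay above the untreated ones of their genotype. Grb10, an adaptor that binds the insulin and IGF1 receptors and dampens their signals, went from 56.9, 27.7 and 41.0 CPM to 112, 79.5 and 83.9 CPM in WT, a called rise (1.13 ± 0.24, adjusted p = 0.002). The KO values of 123, 79.2 and 115 CPM in PBS and of 158, 136 and 167 CPM in MPP+ did not overlap, but the difference missed the threshold (0.54 ± 0.24, adjusted p = 0.0887). It passed with the KO groups alone (0.56, adjusted p = 0.0269), by limma on log2(FPKM + 1) (0.59, adjusted p = 0.045), and without WT PBS replicate 1 or 2 (0.0441 and 0.0373). Replicate number within genotype as a block in edgeR also gave a call (0.56, adjusted p = 0.00808).

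The effect of MPP+ was then compared between genotypes. The interaction, the MPP+ effect in KO minus that in WT, was called for 0 of 10 members by edgeR, DESeq2 and limma, where edgeR called 1.35% of all genes. None had an unadjusted p under 0.05 in edgeR. Cdkn1c came closest (0.79 ± 0.37, adjusted p = 0.3, 95% interval -0.02 to 1.6). For Mest the interval was -0.29 to 0.39, for Igf2 -1.23 to 3.32 and for H19 -0.91 to 3.11, so differences between genotypes of several fold in the last pair were not detectable with these replicates.

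**Figure D2:**
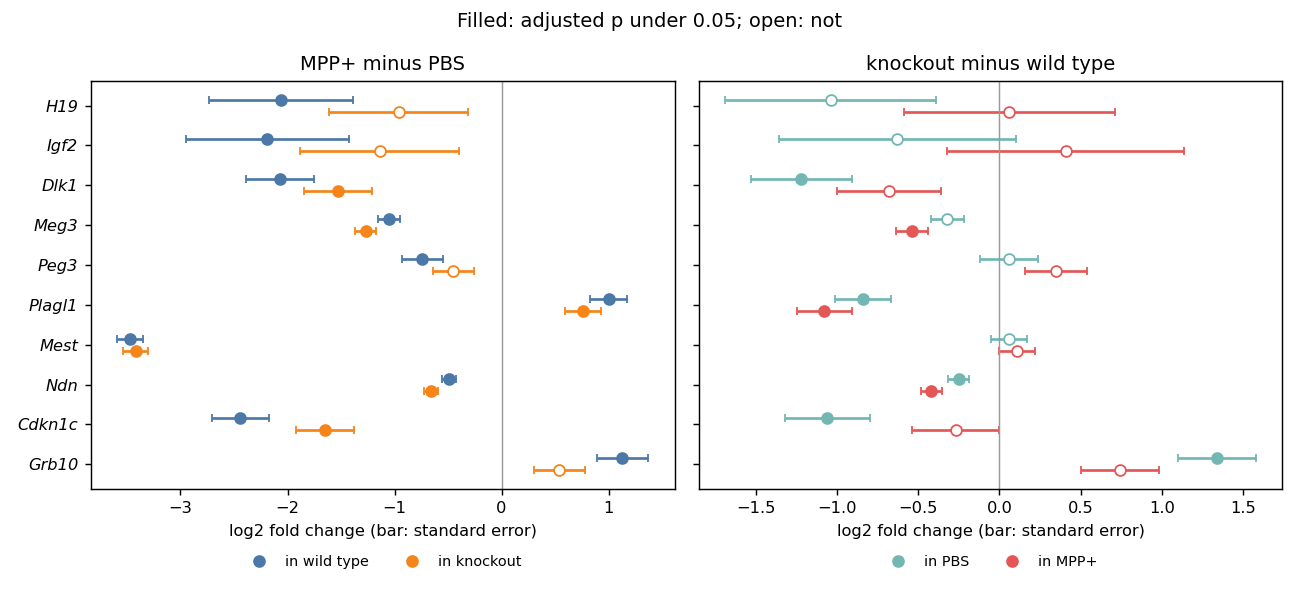
Log2 fold change of each member with its standard error, for MPP+ minus PBS in each genotype (left) and for KO minus WT in each treatment (right). Filled points have an adjusted p under 0.05. Mest lies at -3.47 and -3.42 for MPP+ and near 0 for genotype, while Grb10 and Plagl1 move in the same direction for MPP+ and in opposite directions for genotype.

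The genotype comparison gave another order. In PBS, 5 of 10 members were called between KO and WT, 4 lower and 1 higher, where 11% of all genes were called, 5.66% lower and 5.34% higher. The median was -0.48 over the members and 0 over all genes. Grb10 rose 2.53-fold in KO (1.34 ± 0.24, adjusted p = 0.00626), from the 27.7 to 56.9 CPM of WT to 79.2 to 123 CPM. Plagl1 fell 1.79-fold (-0.84 ± 0.17, adjusted p = 0.011), Dlk1 2.33-fold (-1.22 ± 0.31, adjusted p = 0.0276), Cdkn1c 2.09-fold (-1.06 ± 0.26, adjusted p = 0.0228) and Ndn 1.19-fold (-0.25 ± 0.064, adjusted p = 0.0253). For each of these 5 the KO and WT libraries did not overlap, which also held for Meg3 (-0.32 ± 0.1, adjusted p = 0.0643) and for 33.8% of all genes. Meg3 was called by DESeq2 (adjusted p = 0.0254), both limma fits, the stricter filter and the fit without scaling. In PBS the stricter filter called 2582 of 15914 genes between genotypes. Microglia and ependymal marker lists also differed between genotypes in PBS. The 9 microglia markers summed to 367 to 535 CPM in WT and 199 to 247 CPM in KO, with 3 of 9 called lower, and were detected in every library. The 8 ependymal and choroid plexus markers summed to 289 to 345 CPM in WT and 183 to 239 CPM in KO, with 1 called higher and 2 lower of 7 tested, and Kl at 0 in 3 of the 6 libraries. Foxj1 held most of these sums, at 269 CPM in WT and 161 CPM in KO. Aqp1 was the marker called higher, at 3.61 CPM in WT and 18.1 CPM in KO. In MPP+ the microglia sum was 233 to 304 CPM in WT and 136 to 203 CPM in KO, and the ependymal and choroid sum 225 to 256 CPM and 169 to 206 CPM. MPP+ called 7 microglia markers lower and 1 higher in WT, and 4 lower and 1 higher in KO. The summed astrocyte markers were also lower in KO in PBS, at 3362 to 4322 CPM against 4944 to 5817 CPM. Of these 10 markers, 4 were called lower, 0 higher and 6 not at all. Gfap (1434 CPM in WT, 769 CPM in KO) and Slc1a3 (1386 and 893 CPM) were among the 4. Aldoc was higher in KO (255 and 319 CPM) but not called. The part of these lists in the members' values was not tested. Mest was not called (0.06 ± 0.11, adjusted p = 0.811), with a 95% interval of -0.18 to 0.3.

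These genotype calls rested on few libraries. The count of called members in PBS was 2 without WT PBS replicate 2, WT PBS replicate 3, KO PBS replicate 1 or KO PBS replicate 3, each left out in turn. Calls over all genes fell as well, from 2323 to 1132, 1558, 1274 and 1257 in the same order, so the 11% above rests on these libraries too. Where Dlk1 lost its call, its log2 fold change was -1.11 to -1.19 (adjusted p of up to 0.101). The values for Cdkn1c were -0.91 to -1.17 (up to 0.0872), and those for Ndn -0.2 to -0.28 (up to 0.0723). Plagl1 and Grb10 remained called with any single library left out. Both KO libraries numbered 1 held fewer Y-linked counts, at 39.4 and 43.1 CPM against 127 to 131 CPM in the other 4 KO libraries. Without both, Grb10 was the 1 member still called in PBS (adjusted p = 0.0462), and Plagl1 was at -0.79 (adjusted p = 0.0625).

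In MPP+, 3 of 10 members were called between KO and WT, where 16.9% of all genes were called. All 3 were lower in KO, as were 9% of all genes, namely Plagl1 (-1.08 ± 0.17, adjusted p = 0.0025), Meg3 (-0.54 ± 0.1, adjusted p = 0.00511) and Ndn (-0.42 ± 0.064, adjusted p = 0.00169). Each kept its call under all 22 alternatives. The libraries of KO and WT did not overlap for 6 members and for 33.9% of all genes. Grb10 was higher in every KO library than in any WT library, with 136 to 167 CPM against 79.5 to 112 CPM. It just missed the threshold (0.74 ± 0.24, adjusted p = 0.0572). DESeq2 called it (adjusted p = 0.011), as did edgeR with the stricter filter (0.76, adjusted p = 0.0457), where 3761 of 15914 genes were called. Igf2 (0.41 ± 0.73, adjusted p = 0.766) and H19 (0.06 ± 0.65, adjusted p = 0.97) had wide 95% intervals, from -1.2 to 2.03 and from -1.37 to 1.48.

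The promoters of the member with the largest fall and of the 2 that rose are shown for their content of CpG, the dinucleotide that carries the methyl marks of imprinting. Each is the 250 bases before a RefSeq start on GRCm38.p6, 5′ to 3′ on the strand of the gene, with every CpG in capitals.
Mest (chr6:30737800-30738049, plus strand): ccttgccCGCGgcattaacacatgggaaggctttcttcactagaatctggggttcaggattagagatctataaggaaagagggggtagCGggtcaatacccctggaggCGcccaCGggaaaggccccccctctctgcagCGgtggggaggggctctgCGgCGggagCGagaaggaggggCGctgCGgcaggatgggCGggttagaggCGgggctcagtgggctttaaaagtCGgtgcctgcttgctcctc
Plagl1 (chr10:13090582-13090831, plus strand): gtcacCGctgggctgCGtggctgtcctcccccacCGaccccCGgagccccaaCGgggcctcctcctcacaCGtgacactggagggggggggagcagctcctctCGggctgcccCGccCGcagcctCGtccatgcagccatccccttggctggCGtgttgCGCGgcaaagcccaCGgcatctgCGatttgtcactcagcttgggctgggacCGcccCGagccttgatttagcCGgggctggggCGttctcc
Grb10 (chr11:12037421-12037670, minus strand): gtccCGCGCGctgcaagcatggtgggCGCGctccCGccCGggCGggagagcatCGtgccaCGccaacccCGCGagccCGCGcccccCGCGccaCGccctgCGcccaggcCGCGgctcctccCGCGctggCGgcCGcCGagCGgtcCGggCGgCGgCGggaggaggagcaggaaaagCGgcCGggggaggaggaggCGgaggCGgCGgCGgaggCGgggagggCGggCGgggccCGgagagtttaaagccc
These are the windows richest in CpG of the starts matched for each gene. The Mest window holds 14 CpG, the Plagl1 window 19 and the Grb10 window 40, against a median of 6 over 32851 such windows. Another Mest start had 7 CpG (percentile 53.7) and another Grb10 start had 8 (percentile 57.0), both near the median. For the windows shown, the Grb10 count stood at percentile 98.7 and its GC content was 81.2%, and the Plagl1 count stood at percentile 80.3. Methylation was not measured in these samples, and whether any window shown lies in an imprinting control region was not examined. Over 15 windows of 8 members, both strands searched, GGGGCCCC, a palindrome reported as a binding sequence of the Plagl1 protein, was found in 1, that of Peg3, against 0.889% of all windows. TGATGNAA was found in 0 of 15, against 3.45% of all windows. These counts describe the letters only.

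The spread between replicates differed widely among the members. The SD of log2 CPM within groups was 1.14 for Igf2 and 0.93 for H19. Among the 10285 tested genes of at least 10 CPM, whose median SD was 0.11, these values stood at percentiles 99.6 and 99.3. Grb10 (0.35), Peg3 (0.26) and Plagl1 (0.25) stood at percentiles 93.5, 88.5 and 87.0 of that set, Mest (0.15) and Meg3 (0.13) at percentiles 67.5 and 60.9, and Ndn (0.07) at percentile 18.3. Dlk1 (0.44) and Cdkn1c (0.36) had geometric means of 6.37 and 3.53 CPM, below that level, and stood at percentiles 67.3 and 61.3 of all 21129 tested genes, whose median SD was 0.24. The highest WT PBS library exceeded the lowest 7.14-fold for Igf2 and 4.8-fold for H19, against 1.17-fold for Meg3 and 1.13-fold for Mest. In KO in PBS these ratios were 2.08 for Igf2 and 1.23 for H19.

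**Figure D3:**
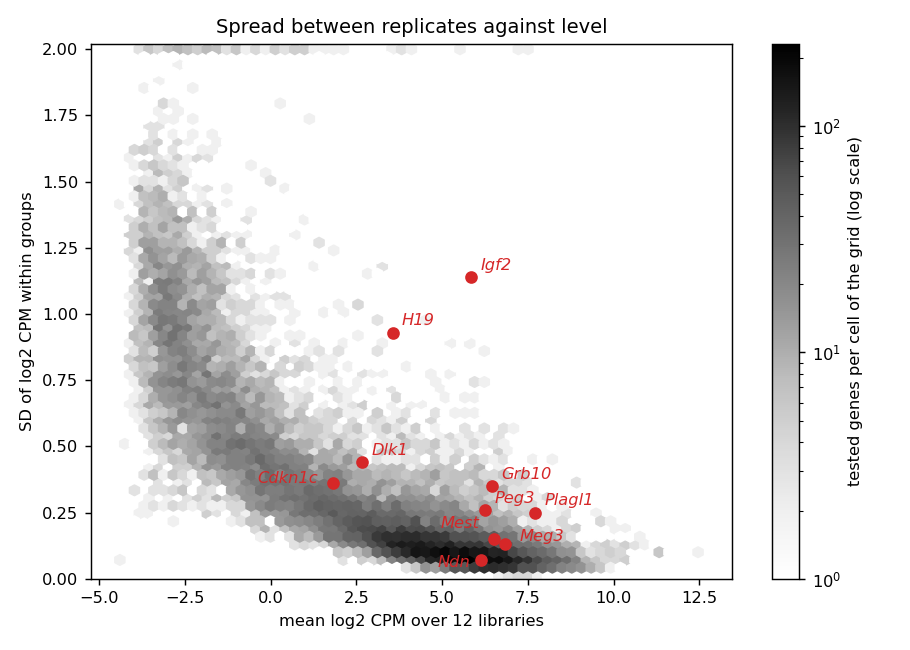
SD of log2 CPM within groups (vertical axis) against mean log2 CPM over the 12 libraries (horizontal axis) for all tested genes, shaded by number of genes, with the 10 members in red. Genes with an SD above 2 are drawn at 2. Igf2 and H19 lie far above genes of their level, and Ndn lies along the lower edge.

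Igf2 and H19 RNA is known from fibroblasts and meninges, so a list of 11 fibroblast and meningeal markers was set beside them. The summed level of the list was 1689.8, 877 and 1234 CPM in WT in PBS and 1508, 1108 and 1208 CPM in WT in MPP+. The KO sums were 2111, 1927 and 2330.1 CPM in PBS and, in MPP+, 2419.7, 2046 and 2634 CPM. These sums hide opposite moves. With MPP+ in WT, Ogn rose from 362 to 758 CPM and Col1a1 fell from 240.1 to 66.2 CPM. The median log2 fold change of the list for MPP+ was -0.63 in WT and 0.37 in KO, against -0.04 over all genes. Replicate 2 had the lowest sum in each of the 4 groups and also the lowest Igf2 in each. H19 was lowest in replicate 2 in WT in PBS, in replicate 3 in WT in MPP+ and KO in PBS, and in replicate 1 in KO in MPP+. The KO libraries had higher sums than all WT libraries. Igf2 was not called between genotypes in either treatment, with wide 95% intervals (-2.24 to 0.97 in PBS and -1.2 to 2.03 in MPP+). Slc6a13 was at 0 in 4 libraries, and the other 10 markers were detected in all. Of the 11 markers, 4 were called higher and 1 lower in KO in PBS, and 8 higher and 1 lower in KO in MPP+. MPP+ called 2 higher and 2 lower in WT, and 1 higher and 0 lower in KO. The part of these cells in the values of Igf2 and H19 was not tested.

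Other marker lists moved with MPP+. The summed level of 8 mural cell markers was 3755 to 4104 CPM in WT in PBS and 685 to 889 CPM in WT in MPP+, with Kcnj8 at 0 in 8 libraries. The KO range was 3709.6 to 5404 CPM without MPP+ and 848 to 972 CPM with it. Acta2 (2335 to 508 CPM in WT) and Tagln (1463 to 192 CPM in WT) held most of these mural sums. Pdgfrb moved less, from 85.8 to 69.9 CPM in WT. Of 7 tested mural markers, 5 were called lower and 0 higher in each genotype. Astrocyte markers fell for 8 of 10 in each genotype. The 8 oligodendrocyte lineage markers summed to 492 to 516 CPM in WT in PBS and 123 to 141 CPM in WT in MPP+, and in KO to 522 to 567 CPM and 145 to 166 CPM, with Mog at or near 0 and 4 of 7 tested markers called lower in each genotype. The 10 neuron markers summed to 460.4 to 574 CPM and 223 to 245 CPM in WT, and to 518 to 624 CPM and 267 to 298 CPM in KO. Stmn2 and Map2, at 283 and 216 CPM in WT in PBS, held most of the sum there. Slc17a6 was at 0 in all libraries but WT PBS replicate 3, and Th, Dcx, Snap25 and Rbfox3 were at 0 in several. Of 7 tested neuron markers, 5 were called lower in WT and 4 in KO. The 8 endothelial markers summed to 96.0 to 99.8 CPM and 35.8 to 51.8 CPM in WT, and to 89.7 to 95.6 CPM and 63.7 to 86.6 CPM in KO. Kdr held most of the WT PBS sum, at 81.6 CPM, and Cldn5 and Tie1 were at 0 in most libraries. Of 6 tested markers, 2 were called lower and 0 higher in each genotype. Cdh5 was not called for MPP+ in KO (35.3 CPM in PBS, 47.5 CPM in MPP+). Microglia and ependymal or choroid plexus markers are given with the genotype comparison. The part of any of these lists in the members' falls was not tested.

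**Figure D4:**
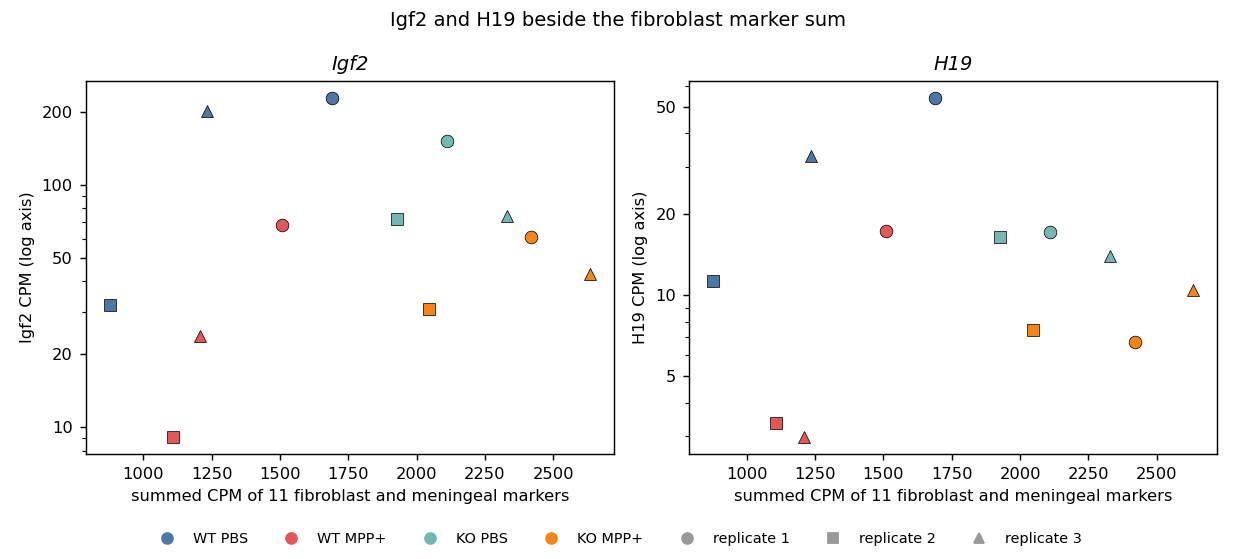
Igf2 (left) and H19 (right) in CPM on a log axis against the summed CPM of 11 fibroblast and meningeal markers, 1 point per library, coloured by group and shaped by replicate number. Within each group replicate 2 has the lowest marker sum and the lowest Igf2. KO libraries lie to the right of all WT libraries, and their Igf2 values overlap those of WT in each treatment.

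Genes beside the members on the same chromosomes were examined within the imprinted domains. In the Dlk1-Meg3 domain, Rian, a maternally expressed noncoding RNA 32.2 kb beyond Meg3, fell from 192 to 48.9 CPM in WT (-1.97 ± 0.072, adjusted p = 3.41e-09) and from 136 to 48.2 CPM in KO (-1.49 ± 0.071, adjusted p = 2.65e-08). Its interaction was called (0.48 ± 0.098, adjusted p = 0.0415), but that call was lost under 13 of 21 alternatives, at an adjusted p of up to 0.151, among them the removal of WT PBS replicate 1, 2 or 3, WT MPP+ replicate 2 or 3, KO PBS replicate 1 or 3, or KO MPP+ replicate 1 or 3. Mirg, a host of microRNAs, fell as well (-1.75 ± 0.27 in WT, -1.15 ± 0.26 in KO). Dio3, the deiodinase that inactivates thyroid hormone, fell from 8.36 to 0.132 CPM in WT and from 4.81 to 0.256 CPM in KO. Rtl1, at 0.657 CPM in WT in PBS, was lower as well (-4.92 ± 1.1 and -3.76 ± 1.0). Begain, at the other side of Dlk1, rose (1.19 ± 0.19 and 0.85 ± 0.19).

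The distal chromosome 7 domain was mixed. Kcnq1ot1, the noncoding RNA of the Cdkn1c side, fell in WT (-0.64 ± 0.18, adjusted p = 0.0117) and in KO (-0.49 ± 0.18, adjusted p = 0.0469), where 15 of 22 alternatives ended the call. By limma on FPKM its call was lost in WT too, at an adjusted p of up to 0.144. Nap1l4 also fell (-0.45 ± 0.058 in WT, -0.4 ± 0.058 in KO). Slc22a18, next to Cdkn1c, rose (1.44 ± 0.22 in WT, 1.87 ± 0.23 in KO). Phlda2, Kcnq1 and Ins2 were too low to test. Near Peg3, Usp29 and Zim1 were not called for MPP+ in either genotype.

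**Figure D5:**
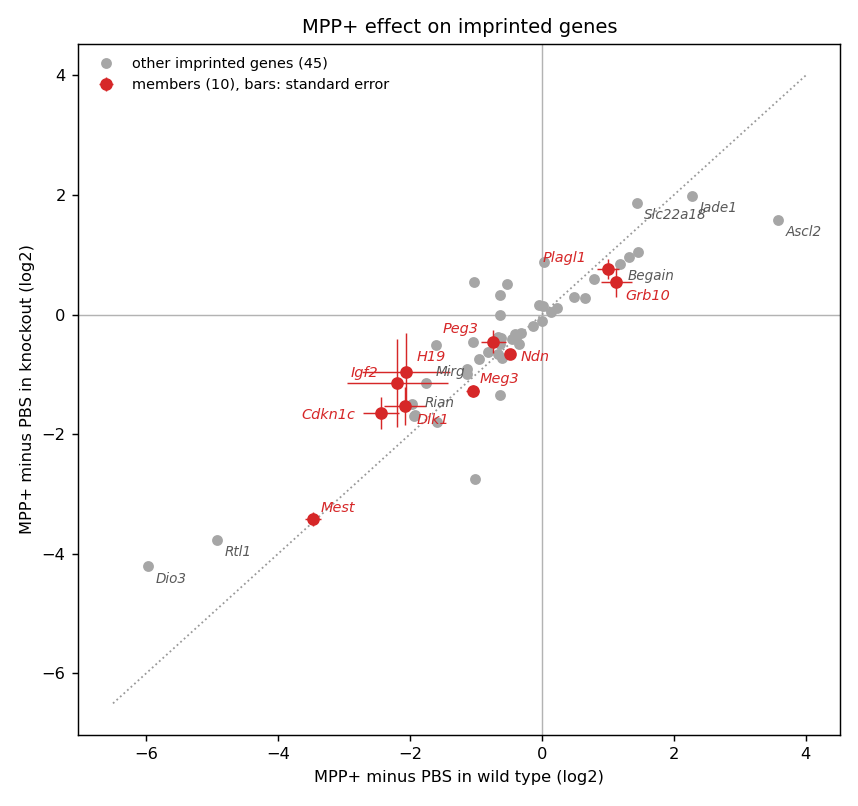
Log2 fold change for MPP+ against PBS in WT (horizontal axis) and in KO (vertical axis) for the 10 members, with standard errors, and 45 other imprinted genes. The dotted line marks equal values. Mest, Dio3 and Rtl1 lie at the lower left, and Plagl1, Grb10 and Begain at the upper right.

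Of 45 other imprinted genes tested, MPP+ called 22 lower and 8 higher in WT, where 28.4% of all genes were lower and 26.8% higher, and 20 lower and 7 higher in KO, where the shares were 24.7% and 23.1%. Their medians were -0.61 and -0.38, against -0.04 over all genes in each genotype. Jade1 rose (2.28 ± 0.5 in WT, 1.99 ± 0.5 in KO) and Atp10a fell (-1.94 ± 0.071 in WT, -1.7 ± 0.071 in KO). Between genotypes in PBS, 1 was called higher and 3 lower of 45, no more than the 11% of all genes called. Htr2a, a serotonin receptor, was higher in KO in PBS (0.8 ± 0.19, adjusted p = 0.021) and in MPP+ (1.38 ± 0.19, adjusted p = 0.00114). The PBS call was lost without WT PBS replicate 1, 2 or 3 or KO PBS replicate 1 or 3, at an adjusted p of up to 0.131.

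The partners of Igf2 and Grb10 were followed as a list of 15 IGF pathway genes. MPP+ called 8 lower and 4 higher in WT, and 7 lower and 4 higher in KO, where 55.2% and 47.7% of all genes were called. Igfbp5, a secreted IGF-binding protein, fell from 7784 to 754 CPM in WT (-3.37 ± 0.083, adjusted p = 4.25e-10) and from 9720.3 to 849.6 CPM in KO. Igf2r, the receptor that clears Igf2 and is itself imprinted in mice, rose from 168 to 459 CPM in WT (1.45 ± 0.078, adjusted p = 5.27e-08) and from 199 to 408 CPM in KO (1.04 ± 0.077). Insr rose in both (0.72 ± 0.055 and 0.61 ± 0.055), and Igf1 fell in both (-0.63 ± 0.16 and -1.7 ± 0.17). In KO in PBS, 6 were higher and 0 lower, where 5.34% of all genes were higher and 5.66% lower. The count was 2 without WT PBS replicate 2, KO PBS replicate 1 or KO PBS replicate 3, and 3 without WT PBS replicate 3. The largest rises were those of Igfbp7 (1.85 ± 0.18, adjusted p = 0.000173) and Igfbp6 (1.44 ± 0.35, adjusted p = 0.0228). Igf2bp1, which binds Igf2 messenger RNA, was higher in KO in PBS (1.17 ± 0.29, adjusted p = 0.0253) and in MPP+ (2.05 ± 0.3, adjusted p = 0.00139). Its PBS call was lost without WT PBS replicate 1, 2 or 3 or KO PBS replicate 1 or 3 (adjusted p of up to 0.129), and that of Igfbp6 without WT PBS replicate 2 or 3 or KO PBS replicate 1 or 3 (up to 0.0816).

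Relatives of the members in sequence or function behaved in their own ways. Cdkn1a, the Cip/Kip relative of Cdkn1c, rose in WT (1.55 ± 0.097) and KO (1.04 ± 0.096), opposite to Cdkn1c. Grb14, the relative of Grb10, fell (-2.35 ± 0.3 in WT, -1.85 ± 0.28 in KO), opposite to the direction of Grb10. Dlk2 fell as Dlk1 did (-2.0 ± 0.5 and -2.6 ± 0.51). Maged2, of the same family as Ndn, fell too (-1.33 ± 0.16 and -1.3 ± 0.16). In all, 2 of 9 relatives were higher and 4 lower in each genotype, where 55.2% of all genes were called in WT and 47.7% in KO.

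Of 12 Notch pathway genes, the pathway to which Dlk1 is related by its EGF repeats, MPP+ called 4 higher and 3 lower in WT and 1 higher and 6 lower in KO, near the 55.2% and 47.7% of all genes called. In KO the 7 calls became 4 without KO PBS replicate 3 and 3 without both KO libraries numbered 1. Jag2, a ligand, rose in WT (2.95 ± 0.28) and KO (2.73 ± 0.29). Of 13 genes that maintain or read imprints, 4 were called in each direction in WT, also near 55.2%. Uhrf1, which brings the maintenance methyltransferase to replicating DNA, fell in WT (-3.09 ± 0.11) and KO (-2.86 ± 0.11). Dnmt1, that methyltransferase, fell (-1.24 ± 0.06 and -1.3 ± 0.06), while Dnmt3b rose (1.17 ± 0.22 and 1.75 ± 0.23).

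For 9 of the members the genes with the most similar profile were found among 13824 genes of at least 2 CPM, by the root mean square difference of centred log2 CPM over the 12 libraries. These are descriptions, since libraries share treatment and genotype. Igf2 was nearest to H19 (0.56), and H19 was nearest to Adamts12 (0.55) and then to Igf2 (0.56). Mest was nearest to Ncapg (0.16), a condensin subunit of dividing cells, then to Igfbp5 (0.17) and Cdca3 (0.2). Grb10 was nearest to Ahnak2 (0.19), followed by Bdnf and Tbc1d2 (both 0.24). Dlk1 was nearest to Cfap46 (0.23), Cdkn1c to Map3k19 (0.28), Plagl1 to 2610035D17Rik (0.17), Meg3 to Cdkn2c (0.13) and Ndn to Itpkb (0.08).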

How the data were processed

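RNA from 12 samples in 4 groups of 3 was sequenced. Per the labels, RNA was isolated in TRIzol and a SMARTER kit served for mRNA library preparation. For 32742 genes the deposited table gives raw counts and, per the file headers, also FPKM from the authors. The builds GRCm38 and mm10 are named in the submitters' processing notes. No source used here names the aligner, the counting tool or its use of strand. Count totals ran from 64249029 to 69865569 per sample. Values of fewer counts are less precise, and reads lack molecular identifiers, so they are not independent molecules.

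The counts entered edgeR 4.0.16 (with R 4.3.3, limma 3.58.1 and, for reading, version 1.17.8 of the package data.table): filterByExpr (minimum count 10, total 15), TMM, 1 mean for each of 4 groups, 8 residual degrees of freedom, two-sided quasi-likelihood tests and Benjamini-Hochberg adjustment over 21129 genes, called under 0.05. Standard errors came from the F statistic and 95% intervals from the t distribution of the same test. SDs of log2 CPM used a prior count of 2. The fit was also run on simulated counts of independent libraries with far fewer changed genes than MPP+ called here. That run therefore does not vouch for the calls in these data. DESeq2 1.42.0 and limma on log2(FPKM + 0.1) and log2(FPKM + 1) were alternatives, with other filters and scalings, a replicate block and each library left out. Python 3.11.15 handled the tables.

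The members and lists were chosen with earlier results of these data known. Named were all members, the 3 genes nearest to each (not reported here for Peg3; the text gives part of the rest), of every other list up to 4 called genes with the largest change and at least 2 CPM, and Arrb2. The neighbours in the imprinted domains (within 3 Mb), Igf2r, Insr and Igf1 in WT, and marker genes named as undetected fall outside that rule, and these were picked with their values in view. Of 196 listed symbols, 193 matched the table. Sequences are from RefSeq (GRCm38.p6), and coordinates of genes are those of the deposited table. Promoter windows were matched for 8 of 10 members, not for H19 and Cdkn1c.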

Additional observations from a re-analysis of the deposited data

How the results depend on the processing

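The 50 log2 fold changes of the members were recomputed under 22 alternatives, 12 of which left out 1 library, for 1090 values in all. Of these, 1023 kept their direction and their side of the threshold, 27 lost a call, 27 gained one and 13 changed sign, 0 of them called in the reported fit. The alternative that fits the 2 groups of a contrast alone could not be applied to the interaction. The 5 members called between KO and WT in PBS became 2 to 6 when 1 library was left out, and 1 without both KO libraries numbered 1, an alternative chosen after seeing the data. With a library left out, the counts ran from 8 to 10 for MPP+ in WT, from 6 to 8 for MPP+ in KO, and from 3 to 4 for KO against WT in MPP+. The interaction count was 0 under every alternative. The cause of these changes was not tested. Values that changed sign were, for KO against WT in PBS, Peg3 at -0.12 without WT PBS replicate 2 and -0.07 without KO PBS replicate 3, with a highest value of 0.27 when a library was left out. Mest in that comparison was at -0.0011 by limma with a pseudocount of 0.1 FPKM, -0.00093 with 1 FPKM, -0.01 without WT PBS replicate 2, -0.09 without KO PBS replicate 1 and -0.09 without both KO libraries numbered 1, with a highest value of 0.17. For KO against WT in MPP+, H19 was at -0.3 without WT MPP+ replicate 2, -0.33 without WT MPP+ replicate 3 and -0.16 without KO MPP+ replicate 3, and Igf2 at -0.04 without WT MPP+ replicate 2, and their highest values were 1.37 and 1.45, both without WT MPP+ replicate 1. The interaction of Mest was at -0.04 without KO PBS replicate 2 and -0.01 without KO MPP+ replicate 1, and at most 0.22. No scaling moved the median of all genes by more than 0.07 on the log2 scale.

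Samples of the same number and genotype deviated from their group means with correlations of 0.008 to 0.052 over 6 pairs, all under 0.1. The numbers were therefore not taken as pairs in the reported fit. Yet, among samples of their own genotype, 11 of 12 correlated best with their own number. Both KO libraries numbered 1 also shared a low Y-linked sum (39.4 and 43.1 CPM, against 127 to 131 CPM in the other KO libraries). Low correlations over all tested genes do not exclude shared cultures. With a replicate block the members called were 10, 8, 5, 4 and 0, in the order MPP+ in WT, MPP+ in KO, KO against WT in PBS and in MPP+, and the interaction, where the reported fit gave 10, 6, 5, 3 and 0. The block was replicate number within genotype for MPP+ and the interaction. For KO against WT it was number alone, which ties WT and KO libraries of the same number together. Those libraries correlated at -0.019 to 0.06, and no label links them. The block within genotype added Igf2 (-1.11, adjusted p = 0.00921) and Grb10 (0.56, adjusted p = 0.00808) for MPP+ in KO. The block on number alone added Grb10 (0.76, adjusted p = 0.00678) for KO against WT in MPP+. Over all genes, the interaction calls went from 285 to 32 with the block, 1326 with DESeq2, 148 without a filter on low counts and 12 without both KO libraries numbered 1, and ran up to 1589 without WT MPP+ replicate 1. Calls of KO against WT in MPP+ went from 3565 to 1826 with these 2 groups alone.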

Other observations

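The ratio of Igf2 to H19 counts was 4.21, 2.84 and 6.1 in WT in PBS for replicates 1, 2 and 3, and 3.95, 2.7 and 8.01 in WT in MPP+. In KO it was 8.75, 4.39 and 5.29 in PBS and 9.11, 4.18 and 4.06 in MPP+. The highest ratio was that of replicate 3 in both WT groups and that of replicate 1 in both KO groups. The ratio of Dlk1 to Meg3 counts was 0.0782, 0.114 and 0.0983 in WT in PBS and 0.037, 0.0585 and 0.0467 in WT in MPP+, so all treated WT libraries lay below the untreated ones. In KO it was 0.048, 0.0708 and 0.0397 in PBS and 0.0387, 0.0623 and 0.0296 in MPP+, where the groups overlapped.

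Igf2 was highest in replicate 1 and lowest in replicate 2 in each of the 4 groups. Dlk1 was highest in replicate 2 in each group, and Grb10 was lowest in replicate 2 in each group. Whether the numbers mark shared cultures is not given in the labels.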
